A study of Mus musculus with 4 samples.

Results

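Interleukin 2 (IL-2) and the receptors that use the common γ chain were followed through activation of mouse CD4+ T cells. The 9 genes were taken by their symbols, also where a symbol stood inside a joined name, out of 23339 named genes. They are *Il2*, which encodes the cytokine, and 8 receptor genes: *Il2ra*, *Il2rb*, *Il2rg*, *Il4ra*, *Il7r*, *Il15ra*, *Il21r* and *Il9r*. RNA was sequenced from splenic CD4+ T cells of C57BL/6J mice aged 10 to 12 weeks, in 4 libraries, 1 per group. The groups were *Cic* f/f; *Cd4*-Cre (cKO) on day 3, *Cic* f/f (WT) on day 3, cKO on day 0 and WT on day 0. All mice thus carried floxed *Cic*, which encodes the transcriptional repressor Capicua, and in cKO mice Cre driven by the *Cd4* promoter removes the floxed part in T cells. Cells on day 3 had been kept for 3 days on plates coated with antibodies to CD3 and CD28, each at 2 μg/ml, and cells on day 0 were not stimulated. As every group is a single library, the spread between replicates is unknown and nothing was tested.

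The common γ chain, encoded by *Il2rg*, is a signalling subunit shared by the receptors for IL-2, IL-4, IL-7, IL-9, IL-15 and IL-21. The γ chain carries JAK3 and pairs with a chain that carries JAK1. IL-2 and IL-15 share the β chain for this, and the other cytokines each have a chain of their own. The kinases pass the signal mainly to STAT5, or to STAT6 for IL-4 and STAT3 for IL-21. Resting CD4+ T cells live on IL-7 and carry its receptor, whereas an antigen signal induces IL-2 and the α chain CD25, which turns the receptor of moderate affinity, made of β and γ chains, into one of high affinity.

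The sequences shown are those just before the starts of *Il2*, *Il2ra* and *Il7r*, the cytokine gene and the receptor genes with the highest and the lowest ratio of day 3 to day 0. RefSeq promoter windows were found for 8 of the 9 genes (*Il2rb* is named only), and the 250 bases upstream of the start on GRCm38.p6 are given 5′ to 3′ on the strand of the gene. The window of *Il7r* is set on a start that lies 65 bases inside the RefSeq gene, so only its 185 bases outside the gene are printed. Capitals mark matches, on either strand, to the NFAT core GGAAA, the STAT motif TTCNNNGAA, the FOXO motif GTAAACA, the CIC octamers TGAATGAA, TGAATGGA, TCAATGAA and TCAATGGA, and the NF-κB motif.
Il2, chr3:37125955-37126204, minus strand: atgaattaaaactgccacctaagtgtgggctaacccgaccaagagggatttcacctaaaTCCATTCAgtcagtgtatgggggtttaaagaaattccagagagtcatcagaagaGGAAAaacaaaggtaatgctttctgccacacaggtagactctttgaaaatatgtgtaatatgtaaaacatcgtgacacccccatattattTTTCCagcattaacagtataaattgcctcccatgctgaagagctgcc
Il2ra, chr2:11642542-11642791, plus strand: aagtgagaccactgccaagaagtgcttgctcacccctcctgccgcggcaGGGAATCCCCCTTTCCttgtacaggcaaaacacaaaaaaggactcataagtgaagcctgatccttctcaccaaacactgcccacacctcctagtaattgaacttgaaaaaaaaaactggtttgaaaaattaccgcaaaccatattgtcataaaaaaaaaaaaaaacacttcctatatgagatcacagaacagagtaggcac
Il7r, chr15:9529942-9530126, minus strand: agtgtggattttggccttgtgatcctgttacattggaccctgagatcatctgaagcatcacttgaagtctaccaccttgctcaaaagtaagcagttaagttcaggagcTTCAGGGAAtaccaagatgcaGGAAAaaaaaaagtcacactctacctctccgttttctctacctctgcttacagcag

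In the *Il2* window the first run of capitals is a CIC octamer, read on the opposite strand, that begins at -191 from the start, and the others are GGAAA cores at -137 and, on the opposite strand, at -47. *Il2* was the only one of the 8 genes whose window held a CIC octamer, which 3.19% of all 32851 upstream windows held. In the *Il2ra* window a pair of overlapping NF-κB matches begins at -201 and -200, followed by a GGAAA core on the opposite strand at -190. An NF-κB match was present in 7.25% of windows and a GGAAA core in 55.6%. The *Il7r* window held a STAT match at -142 from its own start, which is -77 from the outer end of the RefSeq gene, and a GGAAA core at -121, which is -56 from that end. The STAT motif was present in 7.02% of windows. The FOXO letters, present in 3.17% of windows, were found in none of these 3 windows and in that of *Il21r*. A match is a description of the letters and not a binding site.

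Levels are given in FPKM, in which the fragments of a gene are scaled to the length of its transcript and to all mapped fragments of the library, so that genes of different length can be compared. Each library is named by its genotype and day. *Cic* itself had 12.2 FPKM in cKO day 3 and 17.8 FPKM in WT day 3, and 24.9 FPKM in cKO day 0 and 25.4 FPKM in WT day 0. This value counts the whole gene and not the floxed part alone, so it does not check the deletion. The 6 markers of CD4+ T cells lay between 59.0 FPKM (*Cd28* in WT day 3) and 262 FPKM (*Cd3g* in cKO day 3). Among them *Cd4* had 174 FPKM in cKO day 3 and 86.3 FPKM in WT day 3, and 242 FPKM in cKO day 0 and 135 FPKM in WT day 0. The labels describe the sorted cells as CD25- and CD44hi under the name naïve, whereas the methods of the study give CD44lo. Of markers of other cells, the 6 found of 7 for macrophages or monocytes summed to 0.0858 FPKM in cKO day 3 and 1.38 FPKM in WT day 3, with 5 listed at 0 in cKO and 3 in WT, against 62.6 FPKM in cKO day 0 and 204 FPKM in WT day 0. Those of B cells, 5 in all, summed to 53.1 FPKM in cKO day 3 and 42.5 FPKM in WT day 3, and to 36.2 FPKM in cKO day 0 and 17.4 FPKM in WT day 0. The 5 erythroid markers summed to 12.0 FPKM in cKO day 3 and 21.8 FPKM in WT day 3, against 126 FPKM in cKO day 0 and 338 FPKM in WT day 0. Weak genes with a single annotated transcript had FPKM values spaced in steps, from which the depth was estimated at 7260000 to 8910000 fragments per library. The tables of the genotypes were scaled separately, so this estimate carries their scale and is not a count of mapped fragments.

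Differences were computed as log2 ratios of FPKM after adding 0.1 to each value, which understates the change of weak genes. A gene was measured in a comparison if it reached 1 FPKM in either library, and it was called higher or lower where the absolute log2 ratio was over 1.5. *Il9r*, which encodes the chain that binds IL-9, had 0.623 FPKM in cKO day 3, 0.605 FPKM in WT day 3, 0.508 FPKM in cKO day 0 and 0.353 FPKM in WT day 0. It was below 1 FPKM in all 4 libraries and was not measured, whereas the other 8 genes were measured across activation in both genotypes.

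**Figure D1:**
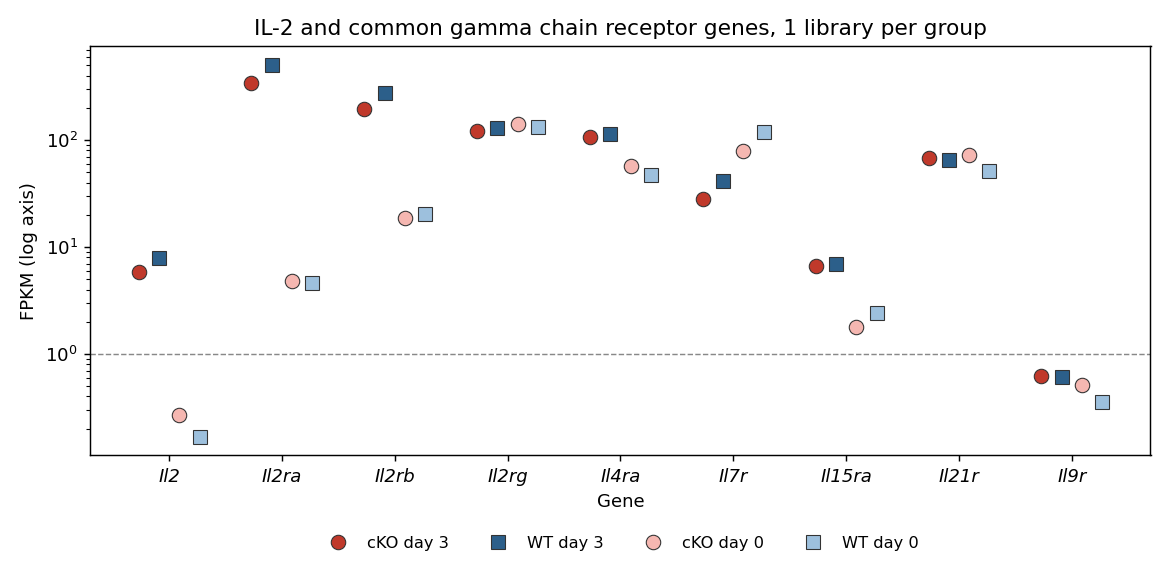
FPKM of each of the 9 genes on a log axis, with 1 point per library and the dashed line at 1 FPKM. *Il2*, *Il2ra*, *Il2rb*, *Il4ra* and *Il15ra* lie higher on day 3, *Il7r* lies lower, and *Il9r* stays under the line at 0.353 to 0.623 FPKM.

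The question of the comparison of day 3 with day 0 was which receptor genes T cells carry before and after activation. In cKO cells, 4 of the 8 measured genes were called higher on day 3 (*Il2*, *Il2ra*, *Il2rb* and *Il15ra*), where 17.3% of all 11232 measured genes were, and 0 were called lower, where 6.96% of all were. In WT cells, 3 were called higher (*Il2*, *Il2ra* and *Il2rb*), against 19.0% of all 11440 genes, and 1 was called lower (*Il7r*), against 8.84%. The median log2 ratio of the 8 genes was 1.37 in cKO and 1.37 in WT, beside 0.36 and 0.40 over all measured genes. The lists of calls differ between the genotypes only in *Il7r* and *Il15ra*, which lie near the threshold. The value of *Il7r* just outside it was -1.48 in cKO and that just inside was -1.51 in WT, and *Il15ra* had 1.84 in cKO and, just outside, 1.49 in WT.

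The α chain of the IL-2 receptor, CD25, is encoded by *Il2ra* at chr2:11642760-11693194 in the deposited coordinates. It had 344 FPKM in cKO day 3 and 508 FPKM in WT day 3, and 4.81 FPKM in cKO day 0 and 4.63 FPKM in WT day 0. Both libraries of day 3 were thus far above both of day 0, by 71.5-fold in cKO and 110-fold in WT, which corresponds to log2 ratios of 6.13 and 6.75. Only a small part of all measured genes had a larger ratio, since 99.8% of them lay below *Il2ra* in cKO and 99.8% in WT. Among the genes at 1 FPKM or more in a library, *Il2ra* stood at percentile 97.9 in cKO day 3 and 98.4 in WT day 3, against 29.7 in cKO day 0 and 29.8 in WT day 0. The predicted RefSeq gene *Gm39760* also lies in this locus, and their reads cannot be told apart. The labels name a gate without CD25, the product of this gene, for the cells of day 0. What part the sort has in its values there was not tested. *Foxp3*, the master regulator of regulatory T cells, many of which carry CD25, had 2.06 FPKM in cKO day 3 and 1.12 FPKM in WT day 3, against 7.87 FPKM in cKO day 0 and 5.11 FPKM in WT day 0. The 5 regulatory T-cell markers, *Foxp3* included, did not move alike and summed to 187 FPKM in cKO day 3 and 152 FPKM in WT day 3, against 69.4 FPKM in cKO day 0 and 52.5 FPKM in WT day 0. *Ctla4*, which activated T cells also express, made up most of both day 3 sums, with 161 FPKM in cKO and 127 FPKM in WT, and the part of such cells in the values of *Il2ra* was not tested. In bulk libraries such as these, fewer cells of a type and less RNA per cell cannot be told apart.

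*Il2rb* (chr15:78478429-78512283) encodes the β chain, which signals for both IL-2 and IL-15. It had 196 FPKM in cKO day 3 and 275 FPKM in WT day 3, and 18.6 FPKM in cKO day 0 and 20.3 FPKM in WT day 0. Its level was 10.5-fold higher on day 3 in cKO and 13.6-fold higher in WT, with log2 ratios of 3.39 and 3.76. NK cells express *Il2rb* as well, and 4 NK cell markers summed to 1.35 FPKM in cKO day 3 and 2.16 FPKM in WT day 3, against 15.6 FPKM in cKO day 0 and 23.8 FPKM in WT day 0, with *Ncr1* at 0 in both libraries of day 3. Their part in the values of *Il2rb* was not tested.

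The common γ chain gene *Il2rg* (chrX:101264386-101268325) had 122 FPKM in cKO day 3 and 129 FPKM in WT day 3, and 142 FPKM in cKO day 0 and 132 FPKM in WT day 0. Its level was within a narrow band in all 4 libraries, and its day 3 to day 0 log2 ratio was -0.21 in cKO and -0.04 in WT. Relative to the median gene, whose own ratio was 0.36 in cKO and 0.40 in WT, it was -0.58 in cKO and -0.44 in WT, and centring on all loci, unnamed ones included, gave -0.12 in cKO and 0.03 in WT. A second locus of the same name and coordinates carried 4.12% to 12.4% of the FPKM of the 2 loci together. With both loci summed the ratios were -0.33 in cKO and -0.16 in WT.

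The ratios of the chains to each other therefore differed strongly between the days. *Il2ra* had 2.81 FPKM per FPKM of *Il2rg* in cKO day 3 and 3.95 in WT day 3, against 0.0339 in cKO day 0 and 0.0350 in WT day 0. For *Il2rb* the same ratio to *Il2rg* was 1.60 in cKO day 3 and 2.14 in WT day 3, against 0.131 in cKO day 0 and 0.153 in WT day 0. The transcript of the shared chain exceeded those of both other IL-2 receptor chains on day 0 and was below both on day 3.

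*Il7r* (chr15:9492379-9535229) encodes the α chain of the IL-7 receptor, CD127, which also serves the receptor for TSLP. It had 28.3 FPKM in cKO day 3 and 41.6 FPKM in WT day 3, and 79.0 FPKM in cKO day 0 and 119 FPKM in WT day 0. Both libraries of day 3 were below both of day 0, at 0.358 of the day 0 level in cKO and 0.350 in WT. The log2 ratios of -1.48 and -1.51 differed by 0.04, so that only the WT value passed the threshold. Relative to the median gene they were -1.84 and -1.92, and both passed. Of all measured genes, 6.74% had a lower ratio than *Il7r* in cKO and 7.58% in WT. The deposited locus extends beyond the RefSeq gene on both sides (chr15:9506159-9529941 on GRCm38.p6), and no other RefSeq gene lies in it.

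The order of the α chains was thus opposite on the 2 days. *Il2ra* had 12.2 times the FPKM of *Il7r* in cKO day 3 and 12.2 times in WT day 3. On day 0 *Il7r* had 16.4 times the FPKM of *Il2ra* in cKO and 25.6 times in WT. On day 3 *Il2ra* and *Il7r* were each lower in cKO than in WT by nearly the same factor, 0.678 and 0.681, which left their ratio almost equal. On day 0, of these 2 genes, only *Il7r* was lower in cKO, at 0.665 of the WT level, while *Il2ra* was at 1.04.

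**Figure D2:**
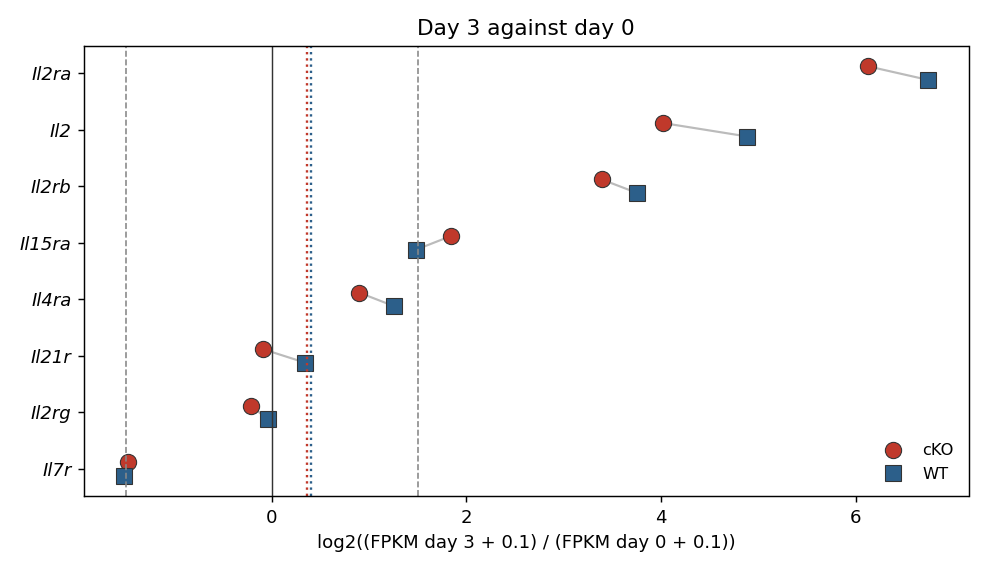
Log2 ratio of day 3 to day 0 for the 8 measured genes in cKO (circles) and WT (squares), ordered by the cKO value, with dashed lines at the thresholds of -1.5 and 1.5 and dotted lines at the median of all measured genes (0.36 in cKO, 0.40 in WT). *Il2ra* has the highest ratios (6.13 and 6.75) and *Il7r* the lowest (-1.48 and -1.51).

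*Il15ra* (chr2:11705292-11733985), the neighbour of *Il2ra* on the chromosome, encodes the chain that binds IL-15 and presents it to cells with the β and γ chains. It had 6.63 FPKM in cKO day 3 and 6.97 FPKM in WT day 3, and 1.78 FPKM in cKO day 0 and 2.43 FPKM in WT day 0. The libraries of day 3 were nearly equal and those of day 0 less so, which gave log2 ratios of 1.84 in cKO and 1.49 in WT. The values of day 0 rest on few fragments. By the annotated transcript taken, the estimate was 6.38 to 36.4 in cKO day 0 and 7.13 to 40.7 in WT day 0. No interval was computed for this gene, so counting error may cover the difference between the genotypes. With a pseudocount of 1 the cKO ratio was 1.46 and was no longer called, and with one of 0.01 the WT ratio was 1.52 and was called.

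*Il4ra* (chr7:125552281-125587616) encodes the α chain of the IL-4 receptor, which also takes part in the receptor for IL-13. It had 107 FPKM in cKO day 3 and 113 FPKM in WT day 3, and 57.4 FPKM in cKO day 0 and 47.3 FPKM in WT day 0. Both libraries of day 3 were above both of day 0, with log2 ratios of 0.90 in cKO and 1.26 in WT, neither past the threshold. Its deposited locus runs past the end of the RefSeq gene, at 125579474 on GRCm38.p6, with no other RefSeq gene inside. Its neighbour *Il21r* (chr7:125603428-125634161), which encodes the IL-21 receptor, had 67.4 FPKM in cKO day 3 and 64.9 FPKM in WT day 3, and 71.8 FPKM in cKO day 0 and 51.1 FPKM in WT day 0. The range of day 3 lay inside that of day 0, and the log2 ratios were -0.09 in cKO and 0.34 in WT, or -0.46 in cKO and -0.06 in WT relative to the median gene, and 0.0031 in cKO and 0.42 in WT when centred on all loci.

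Of the 8 receptor genes, *Il2rg* and *Il7r* together made up most of the summed FPKM in both libraries of day 0 and *Il2ra* and *Il2rb* in both libraries of day 3. The summed FPKM was 873 in cKO day 3 and 1139 in WT day 3, and 376 in cKO day 0 and 377 in WT day 0. *Il2ra* held 39.4% of it in cKO day 3 and 44.6% in WT day 3, against 1.28% in cKO day 0 and 1.23% in WT day 0. *Il2rb* held 22.5% in cKO day 3 and 24.2% in WT day 3, against 4.95% in cKO day 0 and 5.38% in WT day 0. *Il7r* held 3.24% in cKO day 3 and 3.65% in WT day 3, against 21.0% in cKO day 0 and 31.5% in WT day 0. The share of *Il2rg* was 14.0% in cKO day 3 and 11.3% in WT day 3, against 37.8% in cKO day 0 and 35.1% in WT day 0, although its own level was within a narrow band. The 5 genes for chains that pair directly with the γ chain, *Il2rb*, *Il4ra*, *Il7r*, *Il21r* and *Il9r*, summed to 3.26 times the FPKM of *Il2rg* in cKO day 3 and 3.85 times in WT day 3, against 1.60 times in cKO day 0 and 1.80 times in WT day 0.

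Within each library the order of the levels also differed between the days. *Il2ra*, *Il2rb*, *Il2rg*, *Il4ra*, *Il21r*, *Il7r*, *Il15ra* and *Il9r* were in this descending order in both libraries of day 3. On day 0 the order began with *Il2rg* and *Il7r* in both genotypes, followed by *Il21r* and *Il4ra*, then *Il2rb*, *Il2ra*, *Il15ra* and *Il9r*. Neighbours such as *Il21r* and *Il4ra* in WT day 0, at 51.1 and 47.3 FPKM, lay close, and no replicate spread is known that would separate them. *Il2rg* stood at percentile 94.7 in cKO day 3 and 94.7 in WT day 3, against 97.5 in cKO day 0 and 97.5 in WT day 0. *Il4ra* was between percentiles 91.7 and 93.8 in all 4 libraries and *Il21r* between 88.7 and 94.9. *Il7r* stood at 75.1 in cKO day 3 and 82.1 in WT day 3, against 95.4 in cKO day 0 and 97.2 in WT day 0, so that it remained in the upper part of each library.

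**Figure D3:**
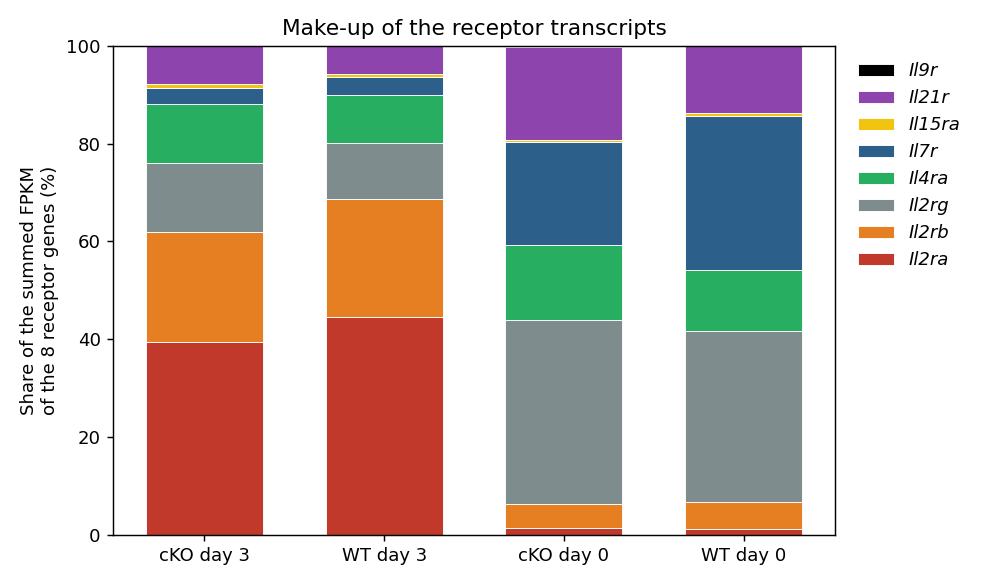
Share of each receptor gene in the summed FPKM of the 8 receptor genes, as stacked bars, 1 bar per library. *Il2ra* and *Il2rb* fill most of both day 3 bars (39.4% and 22.5% in cKO, 44.6% and 24.2% in WT), and *Il2rg* and *Il7r* are the widest parts of both day 0 bars.

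The cytokine gene *Il2* (chr3:37120715-37125954), the growth factor of activated T cells, had 5.87 FPKM in cKO day 3 and 7.83 FPKM in WT day 3, and 0.269 FPKM in cKO day 0 and 0.168 FPKM in WT day 0. The values of day 0 rest on very few fragments. If the WT day 0 value was 1 fragment, the steps between the libraries gave 42.9 fragments in cKO day 3, 53.6 in WT day 3 and 1.96 in cKO day 0. That reading implies a transcript of 820 bases, between the annotated ones of 507 and 1144 bases. With the counts rounded, the level was 21.4-fold higher on day 3 in cKO (95% exact interval of the ratio 5.57 to 182) and 46.9-fold higher in WT (8.07 to 1887). These intervals cover counting error only and not the spread between replicates. They are too narrow in so far as fragments were copied by PCR and are not independent molecules. The difference between these 2 ratios is not resolved at this depth, and the log2 ratios of 4.02 and 4.89 with a pseudocount of 0.1 were 2.44 and 2.92 with one of 1. Even on day 3 *Il2* stood only at percentile 29.7 of the genes at 1 FPKM or more in cKO and at 37.1 in WT.

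The comparison of cKO with WT asked whether the loss of Capicua moved these genes before or after activation. On day 3, 0 of the 8 measured genes were called in either direction, where 0.743% of all 10895 measured genes were called higher and 1.21% lower. On day 0, 0 of 7 were called, where 0.486% of all 10910 genes were called higher and 1.81% lower. The median log2 ratio of the measured genes was -0.25 on day 3 and 0.05 on day 0, beside -0.05 and 0.0017 over all genes. The tables of the genotypes were scaled separately, and on the scale of a pooled column that joins both libraries of day 3 each ratio of that day shifted by -0.02.

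On day 3 the lowest of these ratios belonged to *Il2ra* at -0.56, *Il7r* at -0.55, *Il2rb* at -0.49 and *Il2* at -0.41. These values lie below the lower quartile of all genes, which was -0.23. Markers of T-cell state differed between the same libraries. The 5 markers of activated T cells summed to 1372 FPKM in cKO day 3 and 3201 FPKM in WT day 3, of which *Gzmb*, a cytotoxic granule protease, gave 873 FPKM in cKO and 2712 FPKM in WT, and *Cd44* and *Cd69* were the 2 that were higher in cKO. Of genes of naïve T cells, *Ccr7* had 96.7 FPKM in cKO day 3 and 43.7 FPKM in WT day 3, *Tcf7* had 47.2 FPKM in cKO and 22.3 FPKM in WT, and *Lef1* had 41.5 FPKM in cKO and 34.6 FPKM in WT. The part of these differences in the ratios of the receptor genes was not tested. For *Il2* the estimated counts of 43 and 54 fragments gave 0.747 of the WT level with an exact 95% interval of 0.488 to 1.14, so the difference is within counting error. *Il2rg*, *Il4ra*, *Il15ra* and *Il21r* had ratios between -0.08 and 0.05. On day 0 *Il7r* again had -0.59 and *Il15ra* had -0.43, while *Il21r* had 0.49 and *Il4ra* had 0.28. All 4 were outside the quartiles of all genes of -0.17 and 0.14. By definition as many genes lie outside the quartiles as inside, so this place alone does not set a gene apart. *Il2ra*, *Il2rb* and *Il2rg* had 0.05, -0.12 and 0.10 on day 0. The summed markers of macrophages or monocytes were lower, and those of B cells, which express *Il4ra* and *Il21r*, higher, in cKO than in WT on day 0, as given above, and their part in these ratios was not tested.

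**Figure D4:**
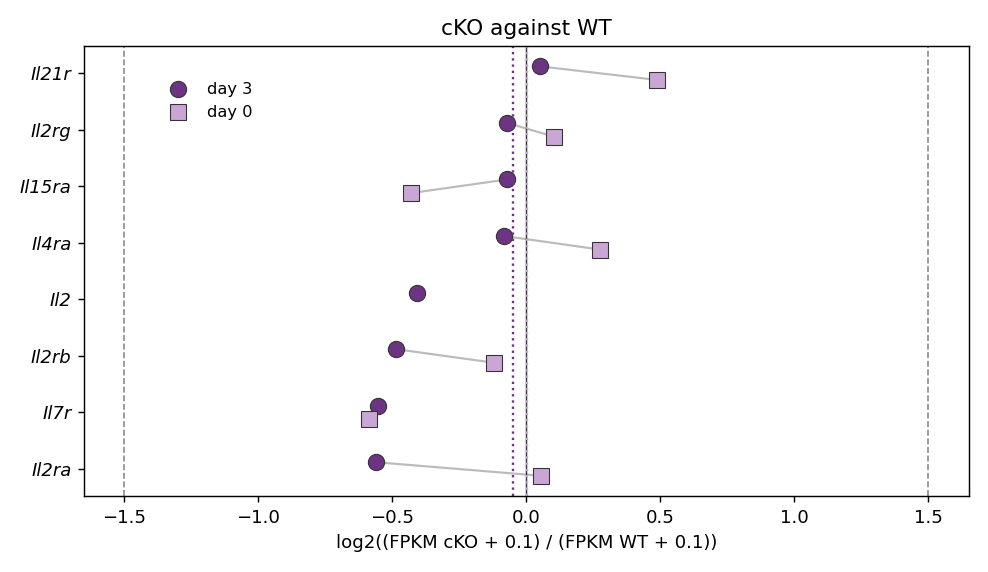
Log2 ratio of cKO to WT on day 3 (circles) and day 0 (squares) for the 8 genes, with dashed lines at -1.5 and 1.5 and dotted lines at the median of all measured genes. *Il7r* lies at -0.55 and -0.59 on both days and *Il2ra* at -0.56 on day 3 and 0.05 on day 0; *Il2* has no point for day 0 because it was below 1 FPKM there.

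The log2 ratio of day 3 to day 0 was lower in cKO than in WT for 6 of the 8 genes and higher for *Il15ra*, by 0.36, and for *Il7r*, by 0.04. The difference, cKO minus WT, was -0.62 for *Il2ra*, -0.87 for *Il2*, -0.36 for *Il2rb*, -0.36 for *Il4ra*, -0.44 for *Il21r* and -0.17 for *Il2rg*. Over 11013 genes the median difference was -0.03, with quartiles of -0.25 and 0.22, and 21.2% of genes differed by more than 0.5 in either direction.

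The other cytokines of the family were sparse before activation. Of 6 such genes, *Il4* had 28.2 FPKM in cKO day 3 and 70.7 FPKM in WT day 3, against 0.713 FPKM in cKO day 0 and 0 in WT day 0. *Il21* had 1.19 FPKM in cKO day 3 and 5.60 FPKM in WT day 3, against 0.109 FPKM in cKO day 0 and 0.0442 FPKM in WT day 0. *Il9* had 3.91 FPKM in WT day 3 and was listed at 0 in the other 3 libraries. *Il7*, *Il15* and *Tslp* were below 1 FPKM in each library. On day 3 *Il21* and *Il9*, which was listed at 0 in cKO, were called lower in cKO than in WT among the 3 genes measured, and *Il4* had a log2 ratio of -1.32. Over all genes measured on that day, 1.21% were called lower in cKO. Among 3 partner chains outside the γ chain set, only *Crlf2*, the TSLP receptor chain that pairs with the product of *Il7r*, was measured. It had 19.5 FPKM in cKO day 3 and 17.5 FPKM in WT day 3, against 6.09 FPKM in cKO day 0 and 5.93 FPKM in WT day 0, and was called higher in both genotypes while *Il7r* was lower.

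Among 10 genes of signalling below the γ chain, 0 of 9 measured were called higher on day 3 in cKO and 1 of 10 in WT (*Jak3*), and 1 was called lower in each (*Irs2*, an adaptor of the IL-4 receptor, at -2.01 in cKO and -1.81 in WT). Over all measured genes, 17.3% in cKO and 19.0% in WT were called higher, and 6.96% and 8.84% lower. The list medians were 0.48 in cKO and 0.29 in WT, beside 0.36 and 0.40 over all genes. *Jak3*, the kinase of the γ chain, had 48.4 FPKM in cKO day 3 and 48.7 FPKM in WT day 3, against 20.6 FPKM in cKO day 0 and 17.1 FPKM in WT day 0. Its row also names *Insl3*, so its reads may be shared. *Jak1*, the kinase of the partner chains, had 78.8 FPKM in cKO day 3 and 73.7 FPKM in WT day 3, against 168 FPKM in cKO day 0 and 154 FPKM in WT day 0. The kinases thus differed in opposite directions between the days, with *Jak3* at log2 ratios of 1.23 and 1.51 and *Jak1* at -1.09 and -1.06. *Stat5a* had ratios of 1.39 in cKO and 1.45 in WT, and *Stat5b* had 0.04 and -0.02.

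Of 12 genes of STAT5 targets, feedback and survival, 6 were called higher on day 3 in cKO and 6 in WT, namely *Cish*, *Socs1*, *Socs2*, *Bcl2l1*, *Myc* and *Osm* in both, and 0 were called lower. Over all measured genes, 17.3% in cKO and 19.0% in WT were called higher, and 6.96% and 8.84% lower. The list medians were 1.57 in cKO and 1.70 in WT, beside 0.36 and 0.40 over all genes. *Cish*, a feedback inhibitor of cytokine signalling, had 53.3 FPKM in cKO day 3 and 65.4 FPKM in WT day 3, against 2.41 FPKM in cKO day 0 and 2.21 FPKM in WT day 0. *Socs2*, of the same family, had 20.5 FPKM in cKO day 3 and 24.6 FPKM in WT day 3, against 0.902 FPKM in cKO day 0 and 0.742 FPKM in WT day 0. *Socs1* had log2 ratios of 2.71 in cKO and 3.43 in WT. *Bcl2*, the survival gene linked to IL-7, had 81.9 FPKM in cKO day 3 and 72.1 FPKM in WT day 3, against 54.1 FPKM in cKO day 0 and 48.5 FPKM in WT day 0, and so lay above its day 0 level on day 3 in both genotypes, while *Il7r* lay below. Between the genotypes 0 genes of the list were called on either day, with medians of -0.25 on day 3 and 0.12 on day 0. The median measured gene had -0.05 and 0.0017. Genotype calls were also rare in the whole set of measured genes. For day 3 the share called higher in cKO was 0.743% and the share called lower was 1.21%. For day 0 these shares were 0.486% and 1.81%. A count of 0 in a list of 12 genes therefore does not set the list apart.

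Of 9 regulators of *Il7r*, 3 were called lower on day 3 in both genotypes (*Foxo1*, *Klf2* and *Tcf7*) and 1 higher (*Gfi1*), with list medians of -1.07 in cKO and -1.15 in WT. Over all measured genes, 6.96% in cKO and 8.84% in WT were called lower, and 17.3% and 19.0% higher. The medians of all genes were 0.36 and 0.40. *Foxo1*, an activator of *Il7r*, had 16.8 FPKM in cKO day 3 and 14.1 FPKM in WT day 3, against 60.1 FPKM in cKO day 0 and 47.6 FPKM in WT day 0. *Gfi1*, a repressor of *Il7r*, had 34.8 FPKM in cKO day 3 and 38.2 FPKM in WT day 3, against 4.95 FPKM in cKO day 0 and 3.69 FPKM in WT day 0. *Klf2* had 14.9 FPKM in cKO day 3 and 5.87 FPKM in WT day 3, against 139 FPKM in cKO day 0 and 131 FPKM in WT day 0. *Tcf7*, a factor of naïve T cells, had a day 3 to day 0 ratio that was -2.02 in cKO and -3.02 in WT. On day 3 the log2 ratio of cKO to WT was 1.33 for *Klf2* and 1.08 for *Tcf7*, neither past the threshold, where that of *Il7r* was -0.55.

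Of 13 regulators of *Il2* and *Il2ra*, 1 was called higher on day 3 in cKO (*Crem*) and 2 in WT (*Crem* and *Prdm1*), and 3 were called lower in cKO (*Fos*, *Jun* and *Junb*) and 2 in WT (*Fos* and *Jun*), with medians of -0.25 and -0.23. Over all measured genes, 17.3% in cKO and 19.0% in WT were called higher, and 6.96% and 8.84% lower. The medians of all genes were 0.36 and 0.40. *Fos*, a part of the AP-1 factor, had 4.22 FPKM in cKO day 3 and 3.12 FPKM in WT day 3, against 222 FPKM in cKO day 0 and 218 FPKM in WT day 0. *Jun*, its partner, had log2 ratios of -2.27 in cKO and -2.52 in WT, and *Crem*, known to repress *Il2*, had 1.52 in cKO and 2.73 in WT. *Prdm1*, also a repressor of *Il2*, had 3.66 FPKM in cKO day 3 and 11.1 FPKM in WT day 3, against 1.39 FPKM in cKO day 0 and 1.92 FPKM in WT day 0. *Prdm1* was the only 1 of the 13 called between the genotypes on day 3, lower in cKO with a log2 ratio of -1.58. Of all genes measured on that day, 1.21% were called lower in cKO and 0.743% higher. *Il2* had -0.41 on day 3, a difference within its counting error. *Nfkb1* had ratios of day 3 to day 0 of 1.35 in cKO and 1.46 in WT.

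Of 16 other cytokine receptor genes of T cells, 3 of 15 measured were called higher on day 3 in cKO and 2 of 16 in WT, with *Il12rb1* and *Il12rb2*, the chains of the IL-12 receptor, in both and *Il10ra* in cKO, and 4 were called lower in each (*Il6ra*, *Il6st*, *Il18r1* and *Tgfbr2*). Over all measured genes, 17.3% in cKO and 19.0% in WT were called higher, and 6.96% and 8.84% lower. The list medians were -0.01 in cKO and -0.32 in WT, beside 0.36 and 0.40 over all genes. *Il12rb2* had 106 FPKM in cKO day 3 and 139 FPKM in WT day 3, against 7.26 FPKM in cKO day 0 and 7.46 FPKM in WT day 0. *Il6ra* had 5.55 FPKM in cKO day 3 and 6.03 FPKM in WT day 3, against 47.8 FPKM in cKO day 0 and 53.5 FPKM in WT day 0. The highest ratios of this list, 4.60 in cKO and 4.24 in WT for *Il12rb1*, were below those of *Il2ra*. All 4 genes called lower were below *Il7r* in both genotypes. *Il6ra* had -3.08 in cKO and -3.13 in WT, and *Il18r1* had -2.35 in cKO and -3.66 in WT. *Il6st* had -2.09 in cKO and -1.89 in WT, and *Tgfbr2* had -1.87 in cKO and -2.04 in WT. Between the genotypes 0 of these 16 genes were called on either day, as were 0 of the signalling genes and 0 of the regulators of *Il7r*. Such calls were rare among all measured genes as well. On day 3, 0.743% of them were called higher in cKO and 1.21% lower, and on day 0, 0.486% and 1.81%.

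**Figure D5:**
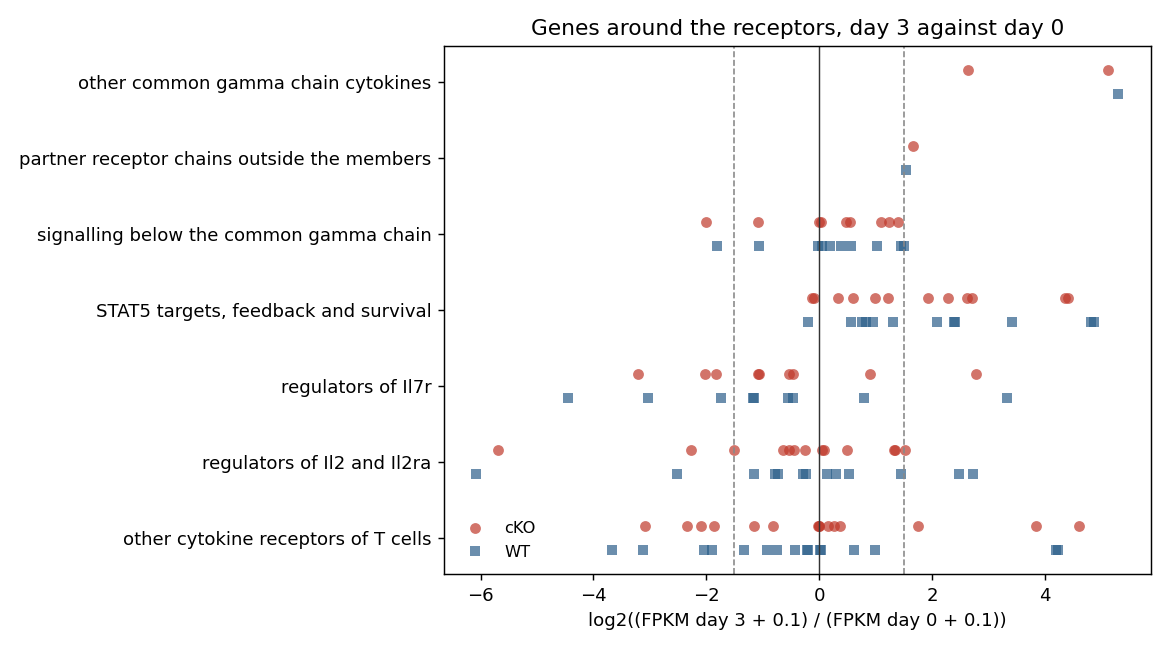
Log2 ratio of day 3 to day 0 for the measured genes of each list in cKO (circles) and WT (squares), with dashed lines at -1.5 and 1.5. Genes at 0 in 1 of the libraries are not drawn, and the 6 called genes of STAT5 targets, feedback and survival lie to the right of the upper threshold in both genotypes.

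The genes closest to *Il2ra* and *Il7r* were sought by the root mean square distance between profiles of log2 FPKM over the 4 libraries, each centred on its own mean, among 7913 genes with a mean of at least 5 FPKM. With 4 libraries this is a description only. Closest to *Il2ra* were *6430571L13Rik*, *Ajuba*, *Hist1h2bj*, *Hist1h2ag* and *Pros1*, at distances of 0.28 to 0.39. The histone gene *Hist1h2bj* had 337 FPKM in cKO day 3 and 333 FPKM in WT day 3, against 5.45 FPKM in cKO day 0 and 4.47 FPKM in WT day 0, and so was nearly equal between the genotypes on day 3 where *Il2ra* was not. Histone genes belong to multigene families whose reads can be shared. Closest to *Il7r* were *Tpcn1*, *Tnfrsf1a*, *Rin3*, *Lyn* and *Tmem154*, at distances of 0.13 to 0.19. *Tnfrsf1a*, which encodes a receptor for tumour necrosis factor, had 3.98 FPKM in cKO day 3 and 5.53 FPKM in WT day 3, against 12.1 FPKM in cKO day 0 and 14.0 FPKM in WT day 0. *Lyn*, a kinase known from B cells and myeloid cells, had 2.71 FPKM in cKO day 3 and 3.28 FPKM in WT day 3, against 5.89 FPKM in cKO day 0 and 8.99 FPKM in WT day 0. All 5 of these genes were lower in cKO than in WT on both days, as *Il7r* was. They were chosen for their likeness to *Il7r*, so this is not a separate result.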

How the data were processed

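Reads had been aligned by the authors with TopHat 2.0.10 and expression estimated with Cufflinks 2.1.1. The methods and the submitters' processing notes name mm9 as the build, and the notes also name CASAVA. The deposited tables give FPKM of 31171 loci for each library, with a fold change, P and q of the authors' own comparisons, which were not used. In the pair of tables whose headers give cKO against WT, the column examined in each equalled a weighted mean of 2 libraries and served only for an alternative scale, which has no value for WT day 0. The 16 tables of functional annotation were not used. The loci of all 9 genes overlap the RefSeq genes on GRCm38.p6 and none overlaps the gene in an mm9 annotation, so the coordinates are given as deposited. For 411 names with more than 1 locus, that with the highest mean over the libraries was taken. With 1 library per group there was no test. Ratios of named genes were computed as log2((a + 0.1)/(b + 0.1)). The 9 genes, the 7 gene lists with 69 genes and the rules for genes named were chosen with earlier results of these data known. The rule named all 9 genes, up to 3 genes of each list with the largest ratios, the 5 genes most like *Il2ra* and *Il7r*, and markers of other cells. *Jak1*, *Stat5b*, *Bcl2*, *Foxo1*, *Prdm1* and *Nfkb1* were added after their values were seen. The values given for *Il6st* and *Tgfbr2* also go beyond the 3 genes of their list. Depth was estimated from FPKM below 0.5 of genes with a single annotated transcript over 1500 bases, and intervals cover counting error only. Other settings tried were a size threshold of 1, a pseudocount of 0.01 or of 1, the filter on FPKM raised to 5 or dropped, libraries rescaled to a fixed sum, and ratios centred on the median named gene or the median locus. A common scale and the sum of the *Il2rg* loci were added after seeing the data. Whether reads were counted by strand is not given in the sources used here. The calculation was tested on simulated data. Python 3.11.15, numpy 2.4.6, pandas 2.3.3, scipy 1.17.1 and matplotlib 3.10.9 were used.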

Additional observations from a re-analysis of the deposited data

Results flagged for a closer look

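In 4 genes the direction of a ratio differed between groups, which was not tested and which a single library per group cannot test. For *Il2ra* the log2 ratio of cKO to WT was -0.56 on day 3 and 0.054 on day 0. For *Il2rg* it was -0.072 on day 3 and 0.10 on day 0, and for *Il4ra* -0.082 on day 3 and 0.28 on day 0. The values of *Il2rg* on both days, of *Il4ra* on day 3 and of *Il2ra* on day 0 lie inside the quartiles of all genes. For *Il21r* the log2 ratio of day 3 to day 0 was -0.091 in cKO and 0.34 in WT. Relative to the median gene both were below 0, and centred on all loci both were above 0, at 0.0031 and 0.42.

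A second locus under the name *Il2rg*, with the same coordinates as the first, was outside the comparisons and carried signal in every library. It had 6.58 FPKM in cKO day 3 and 5.53 FPKM in WT day 3, and 20.2 FPKM in cKO day 0 and 17.7 FPKM in WT day 0. Its log2 ratios of day 3 to day 0, -1.60 in cKO and -1.66 in WT, would have been called lower, whereas the main locus had -0.21 and -0.04.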

How the results depend on the processing

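The number of genes called kept within 1.5 times its value under every alternative run, at 3 to 5 in cKO and 3 to 6 in WT for day 3 against day 0, and at 0 on both days for cKO against WT. The 364 recomputed values include differences between genotypes, shares and counts of genes called, to which the threshold on a single ratio does not apply. Many values could not change. The filters on FPKM leave the ratio of a measured gene as it was, and the sum of the *Il2rg* loci alters only *Il2rg*. With these included, 353 were counted as unchanged, 4 lost a call, 7 gained one and 0 changed sign among called values. Those that changed concern only *Il7r*, *Il15ra* and, at a threshold of 1, *Il4ra*. On the common scale from the pooled columns, chosen after seeing the data, *Il7r* in cKO had -1.54 and was called. That scale gives no value for comparisons with WT day 0. Centring on the median of all loci left *Il7r* in WT at -1.44, not called, and *Il15ra* in WT at 1.56, called. Rescaling each library to a fixed sum cannot change a share and did not. No paired analysis was possible because each group has 1 library. For the same reason no library could be left out. At an estimated 7260000 to 8910000 fragments, *Il2* on day 0 rests on an estimated 0.618 to 2.73 fragments over its annotated transcript lengths, and *Il9r* on 11.5 to 24.9 if its longest transcript is taken and on 1.55 to 3.36 if its shortest is.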

Other observations

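The deposited locus numbers run by strand within a chromosome. On chromosome X, 341 of 347 named loci with a RefSeq strand in the first run are on the plus strand, and 329 of 332 in the second run are on the minus strand. The main *Il2rg* locus lies in the second run, as does the gene by its RefSeq strand, and the weaker locus lies in the first run. The weaker locus held 5.10% of the FPKM of both in cKO day 3 and 4.12% in WT day 3, against 12.4% in cKO day 0 and 11.8% in WT day 0. Whether its reads come from the opposite strand was not tested. Such pairs are frequent in these tables. Among 164 names on a pair of loci of equal coordinates, with means of at least 5 FPKM and 1 FPKM, the weaker locus held a smaller share on day 3 than on day 0 in both genotypes for 119 (72.6%). Its median share was 12.0% in cKO day 3 and 12.2% in WT day 3, against 20.0% in cKO day 0 and 20.1% in WT day 0. *Il2rg* thus differed between the days in the same direction as most such names, and these pairs were looked at after the values of *Il2rg* were seen.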
